A study of Mus musculus with 6 samples.

Results

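The set described here is 8 genes of actin regulation, followed over 6 Affymetrix mouse expression arrays: the profilin genes Pfn1 and Pfn2, Wipf2, Phactr1, Basp1, the gelsolin gene Gsn, and the cofilin genes Cfl1 and Cfl2. Every probe set (a group of short probes for 1 transcript) whose only gene symbol was one of these was taken. This gave 22 of the 45101 probe sets in the table, and 8 of the 18193 genes named by a single symbol. Gsn had 6 probe sets, Phactr1 had 4, Pfn2 and Cfl2 had 3 each, Wipf2 and Cfl1 had 2 each, and Pfn1 and Basp1 had 1 each. A further probe set that named Phactr1 together with another gene was left out. Pfn2, Wipf2, Phactr1 and Basp1 belong to the targets that the study proposed for miR-7, so their direction with miR-7 is not independent evidence for that list.

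The series asked what the microRNA miR-7 does to transcripts of the insulin-secreting beta cell. MIN6 cells, a line established from an insulinoma of a transgenic mouse, were infected with an adenovirus carrying green fluorescent protein (AdGFP, 1 array), miR-7a (AdmiR7a, 2 arrays from a duplicate infection) or miR-7b (AdmiR7b, 1 array). All 4 cultures, the control included, received virus at a multiplicity of 250 and were kept for 48 h with 2% serum and 4.5 g/l glucose. Pancreatic islets came from C57BL/6 mice in which Lox/Cre recombination removed miR-7a2 from beta cells (KO, 1 array). Wild-type mice gave the control islets (WT, 1 array). The ages of the mice, the promoter that drove Cre and the number of animals behind each islet array are not given in the sources used here. Islets also hold other cell types, to which the deletion was not directed.

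Actin filaments form a mesh under the plasma membrane of beta cells, which secretory granules have to pass before they fuse. Profilins load actin monomers for growth at filament ends, proteins of the WIP and WASP families direct branching through the Arp2/3 complex, and gelsolin and cofilins sever filaments. A microRNA pairs with messenger RNAs mainly through its seed, bases 2 to 8, and usually lowers their stability or translation.

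The microRNAs of the 2 vectors are shown because their shared seed was the ground for pooling the 3 miR-7 arrays. Sequences are the RefSeq entries on GRCm38.p6, written 5′ to 3′ with the seed in capitals.
mmu-miR-7a-5p: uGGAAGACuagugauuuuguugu
mmu-miR-7b-5p: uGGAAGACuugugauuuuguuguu
Both carry the seed GGAAGAC. Over 23 compared positions they differ by 1 substitution, A10U, counted from the 5′ end with the miR-7a base first, and miR-7b is 24 bases long against 23. The mature miR-7a sequence is encoded at chr7:78888295-78888317 on the plus strand (Mir7-2, the locus deleted in KO) and again at chr13:58392841-58392863 on the minus strand (Mir7-1). miR-7b is encoded at chr17:56243017-56243040 on the plus strand. The KO islets thus kept a second miR-7a locus and the miR-7b locus. Mature microRNAs are not measured by these probe sets.

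Values are log2 intensities. The duplicate AdmiR7a arrays differed by at most 0.40 for 95% of genes, and by at most 0.71 for 95% of genes with a mean between 4 and 6. The median difference of all genes was 0.06 between the pooled miR-7 arrays and AdGFP, and -0.03 between KO and WT. Of 9 beta cell markers, 8 were at 4 or above on each MIN6 array and 9 on each islet array. In the test described below, 5 of these 8 fell with miR-7 in MIN6 (62.5%, against 11.9% of all genes) and 0 rose. Their median difference was -0.65. Endothelial (8 of 8) and immune (9 of 9) markers were at 4 or above on both islet arrays. The labels do not say whether the duplicate cultures were separate, so the p-values measure only the spread between these arrays, which may be technical. In both systems fewer cells of a type and less RNA per cell cannot be told apart.

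In MIN6 cells Pfn2, Wipf2 and Phactr1 fell with miR-7, Gsn and Cfl2 rose, and Pfn1 and Cfl1 did not pass the test. For Cfl2 the rise was that of its brightest probe set, while its probe set 1418066_at differed by -0.44 without passing. The test set the 3 miR-7 arrays against the 1 AdGFP array in limma over all genes with a mean of at least 4, and a gene was called at a Benjamini-Hochberg adjusted p under 0.05. Basp1 stayed below this filter and was not tested. Of the 7 genes tested, 3 fell, where 11.9% of all 10368 genes fell, and 2 rose, where 14.3% rose. The 3 genes that fell lay below AdGFP on all 3 miR-7 arrays, as did 32.9% of all genes. The other 4 tested genes lay above it on all 3, as did 46.5%. The calls use these same values, so the order of the arrays adds no support to them. Both AdmiR7a arrays lay at least 1 below AdGFP for Phactr1 alone of the 7 (2.15% of all genes) and at least 1 above it for Gsn alone (2.21%). Among the 16 probe sets of these genes that passed the filter, 5 fell and 3 rose, against 8.4% and 7.9% of the 20177 probe sets tested. The 5 belonged to Pfn2 (2), Phactr1 (2) and Wipf2 (1), and the 3 that rose were all of Gsn. For 2 of these 3 the AdGFP value was below 4, so they passed the filter only through the miR-7 arrays, and nothing is read from that count. Without the filter, 427 of 18193 genes rose and 554 fell, and Pfn2 and Gsn alone of the 8 passed. The calls needed all 3 miR-7 arrays: without any 1 of them no gene of the array passed, and the lowest adjusted p was 0.0657 without the first AdmiR7a array, 0.0773 without the second and 0.0664 without AdmiR7b.

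**Figure D1:**
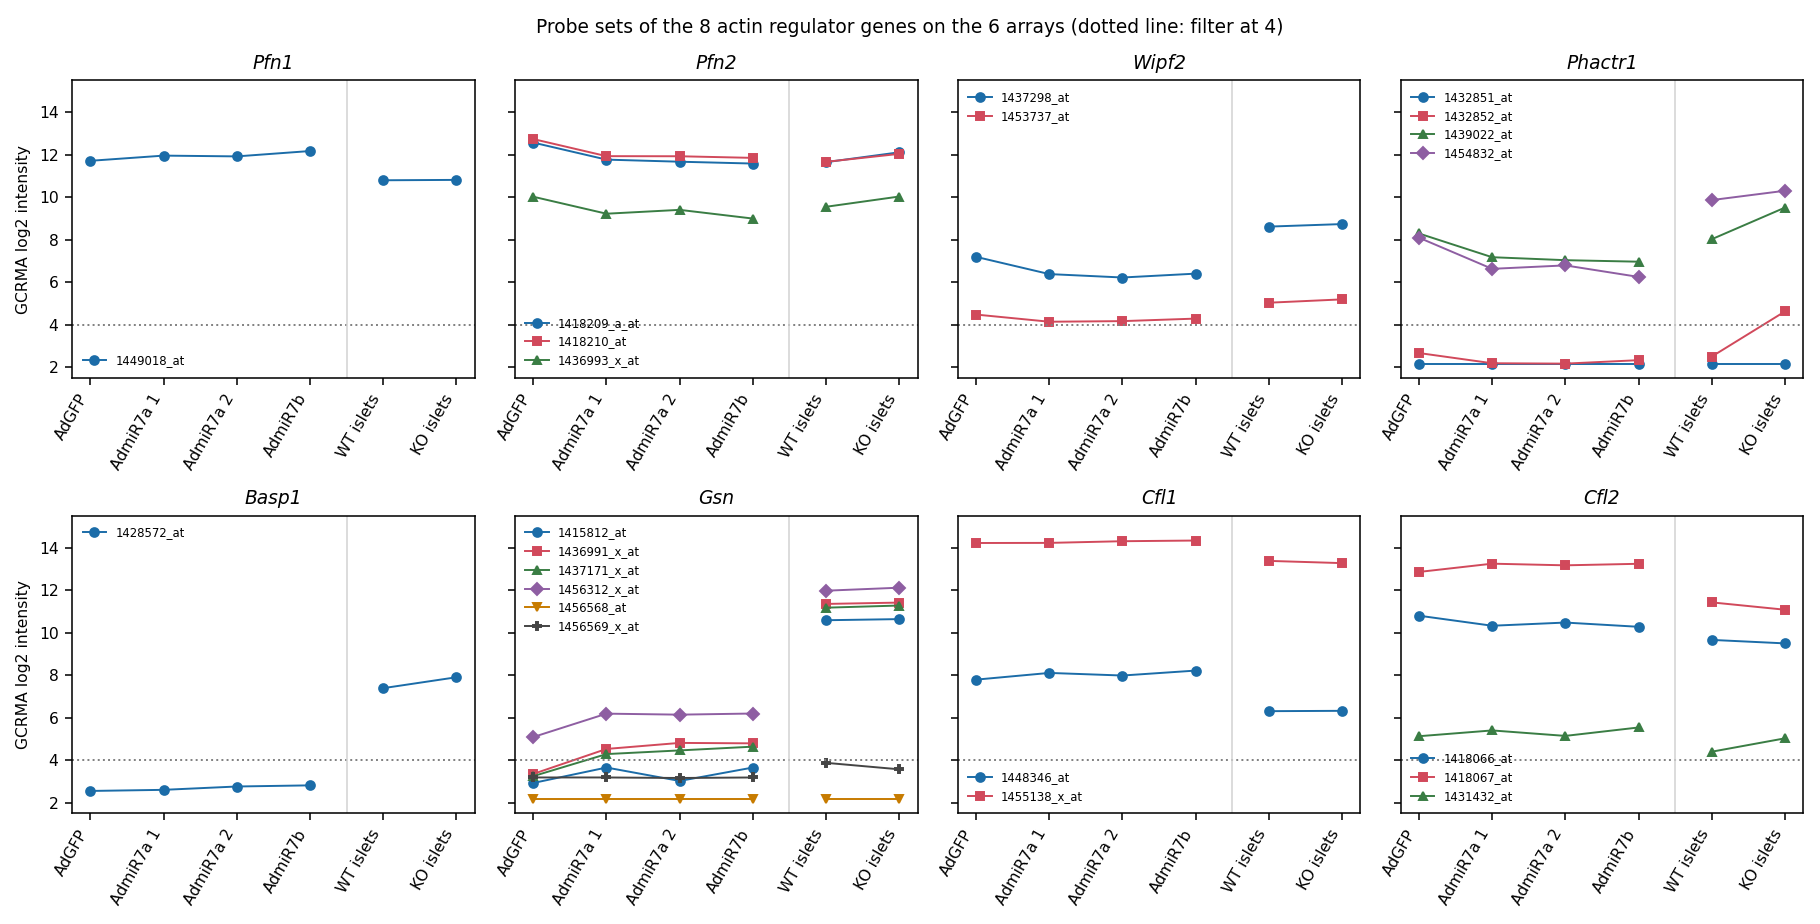
Deposited log2 value (vertical axis) of each probe set of the 8 genes on the 6 arrays (horizontal axis, WT before KO), 1 panel per gene and 1 line per probe set; the dotted line marks the filter at 4. Pfn2, Wipf2 and Phactr1 step down from AdGFP to the miR-7 arrays, and Gsn and Basp1 stand far higher in islets than in MIN6 cells.

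Pfn2, the profilin that is abundant in neurons and endocrine cells, was lower on every miR-7 array at each of its 3 probe sets. Its brightest MIN6 probe set, 1418210_at, read 12.73 with AdGFP, 11.93 and 11.92 with AdmiR7a and 11.85 with AdmiR7b. The groups did not overlap, and the 3 miR-7 arrays lay within 0.08 of each other. Pfn2 fell by 0.83 ± 0.08 (SE, 3 arrays against 1; limma adjusted p = 0.0132), a level 1.78-fold lower. Only 4.87% of the genes tested had a lower difference. Probe set 1418209_a_at went from 12.57 to 11.77, 11.67 and 11.58 and fell by 0.90 (adjusted p over probe sets = 0.0293). In probe sets whose names end in _x_at some probes can match other transcripts. The 1 such set of Pfn2, 1436993_x_at, went from 10.02 to 9.22, 9.40 and 8.99, a difference of -0.81 that did not pass (adjusted p = 0.0678).

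The islets gave the opposite order for Pfn2. Its 3 probe sets read 12.11, 12.04 and 10.03 in KO, against 11.65, 11.66 and 9.55 in WT. They were thus higher in KO by 0.46, 0.37 and 0.48, without a test since each genotype had 1 array. At the brightest islet probe set, 1418209_a_at, the level was 1.38-fold higher in KO, and 6.45% of the genes tested in islets had a higher difference. The 3 probe sets agreed closely: their differences spanned 0.08 in MIN6, and 82.0% of the 4677 genes with several tested probe sets had a wider span.

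Pfn1, the profilin of nearly all cells, did not share this pattern. Its probe set 1449018_at read 11.71 with AdGFP, 11.96 and 11.92 with AdmiR7a and 12.17 with AdmiR7b, all 3 above the control. The difference of 0.30 ± 0.13 did not pass (limma adjusted p = 0.160). In islets it read 10.81 in KO and 10.80 in WT. The other profilin genes of the mouse, Pfn3 and Pfn4, had means below 4 in MIN6 and in islets.

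Wipf2 encodes a WIP-family protein that binds N-WASP, the activator of the Arp2/3 complex. Probe set 1437298_at read 7.19 with AdGFP, 6.38 and 6.22 with AdmiR7a and 6.40 with AdmiR7b. The control stood clear of the 3 miR-7 arrays, which were within 0.18 of each other. Wipf2 fell by 0.86 ± 0.11 (limma adjusted p = 0.0176), a level 1.81-fold lower, with 4.63% of genes lower still. A second probe set near the filter, 1453737_at, read 4.48 with AdGFP and 4.14, 4.17 and 4.29 with miR-7; its difference of -0.28 did not pass (adjusted p = 0.125), and the mean of both differed by -0.57. In islets Wipf2 read 8.73 in KO and 8.62 in WT at the first probe set, and 5.19 and 5.04 at the second. These differences of 0.12 and 0.16 were below the median absolute difference between KO and WT over all genes, which was 0.17.

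Phactr1 encodes a protein that binds actin monomers and protein phosphatase 1. It had the lowest differences of the 7 genes tested in MIN6. Probe set 1439022_at read 8.29 with AdGFP, 7.18 and 7.04 with AdmiR7a and 6.96 with AdmiR7b, and 1454832_at read 8.09, then 6.63, 6.79 and 6.25. At both, the highest miR-7 array lay more than 1 below AdGFP. At the former, Phactr1 fell by 1.23 ± 0.11 (limma adjusted p = 0.0132), a level 2.35-fold lower, and 1.70% of genes had a lower difference. At the latter it fell by 1.54 (adjusted p over probe sets = 0.0400). The mean of its 4 probe sets, which takes in the dim ones, differed by -0.80 in MIN6 and by 1.01 between KO and WT.

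In islets the Phactr1 probe sets were higher in KO by unequal amounts. Probe set 1454832_at, the brightest there, read 10.30 in KO and 9.86 in WT, a difference of 0.44 or 1.36-fold, with 7.04% of genes higher. Probe set 1439022_at read 9.51 and 8.02, a difference of 1.49. It was the only 1 of the 18 probe sets that passed the filter in islets to lie at least 1 higher in KO, where 3.43% of all 20794 did. The span of 1.05 between the 2 was exceeded by 10.8% of the 4600 genes with several tested probe sets in islets. Probe set 1432852_at stayed below the filter, at 4.62 in KO and 2.50 in WT, and at 2.67 with AdGFP and 2.17 to 2.33 with miR-7. The remaining probe set, 1432851_at, was at the table's lowest value of 2.17 on all 6 arrays. The array's actin controls, which read a transcript near either end, were brighter at the 3′ end by 2.65 (KO) and 2.77 (WT), against 1.43 to 1.48 in MIN6. For the Gapdh controls this difference was 0.83 (KO) and 0.68 (WT), against -0.0016 to 0.05 in MIN6. The part of this end bias in the unequal probe sets was not tested.

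Basp1 encodes a myristoylated protein that gathers phosphoinositides at the inner side of the membrane, where actin attaches. In MIN6 its probe set 1428572_at read 2.55 with AdGFP, 2.60 and 2.76 with AdmiR7a and 2.81 with AdmiR7b. These values are close to the table's floor, so a fall with miR-7 could not have been seen. In islets it read 7.90 in KO and 7.38 in WT. The difference of 0.51, a level 1.43-fold higher in KO, was exceeded by 5.34% of genes and was the largest of the 8 genes at their brightest probe sets. Stellate and mesenchymal markers at 4 or above numbered 0 of 10 on every MIN6 array and 4 of 10 on each islet array, and their summed level was 11.2 in KO and 11.3 in WT. The part of other cell types in the Basp1 level of islets was not tested.

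Gsn encodes gelsolin, which severs and caps filaments when calcium rises. Its brightest probe set, 1456312_x_at, read 5.09 with AdGFP, 6.19 and 6.14 with AdmiR7a and 6.19 with AdmiR7b. The miR-7 arrays were within 0.05 of each other and all about 1 above the control. Gsn rose by 1.09 ± 0.07 (limma adjusted p = 0.0111), or 2.12-fold, and 2.44% of genes had a higher difference. Probe set 1436991_x_at went from 3.35 to 4.52, 4.81 and 4.79, a difference of 1.36 (adjusted p over probe sets = 0.0290). Probe set 1437171_x_at went from 3.24 to 4.28, 4.46 and 4.63, a difference of 1.21 (adjusted p = 0.0332). Both were below 4 with AdGFP and passed the filter only through the miR-7 arrays, so they had to differ and add no support. All 3 are _x_at probe sets, and without these, or with a filter at 6, Gsn was not tested. Probe set 1415812_at, which is not of that kind, stayed below the filter, at 2.92 with AdGFP and 3.65, 3.02 and 3.65 with miR-7. Probe set 1456569_x_at read 3.16 to 3.18 on all MIN6 arrays, and 1456568_at was at the lowest value on all 6 arrays.

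The Gsn level was low in MIN6 and high in islets. The 4 probe sets with signal read 12.11, 11.41, 11.27 and 10.63 in KO and 11.97, 11.35, 11.17 and 10.58 in WT. The differences between genotypes, 0.05 to 0.14, were below the median absolute difference of all genes. Of 8 endothelial markers, 1 was at 4 or above in MIN6 with AdGFP and 2 on each miR-7 array. Their summed level was 7.70 with AdGFP and 8.34 to 8.45 with miR-7, and it was 11.8 in KO and 12.0 in WT islets. In MIN6 this sum was mostly Esam, which read 7.38 with AdGFP and 8.10 to 8.23 with miR-7 and rose by 0.79. Plvap, below 4 with AdGFP and at 4.28 to 4.42 with miR-7, passed the filter only through the miR-7 arrays. The other endothelial markers had MIN6 means below 4, with Pecam1 and Cdh5 at or next to the lowest value. Immune markers numbered 0 of 9 at 4 or above on every MIN6 array. The part of other cells in the Gsn values was not tested.

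Cofilins sever filaments and are switched off by phosphorylation. Cfl1, the form of most tissues, read 14.21 with AdGFP and 14.22, 14.30 and 14.33 with miR-7 at 1455138_x_at. The difference of 0.07 ± 0.08 did not pass (limma adjusted p = 0.571). Its other probe set, 1448346_at, read 7.79 with AdGFP and 8.10, 7.98 and 8.21 with miR-7, and did not pass (0.31, adjusted p over probe sets = 0.157). In islets the differences between KO and WT were -0.11 and 0.02, at 13.27 against 13.37 and 6.32 against 6.30. At the brighter probe set the AdGFP array lay 0.01 below the nearest miR-7 array.

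Cfl2, the form abundant in muscle, gave different directions at its 3 probe sets. The brightest, 1418067_at, read 12.85 with AdGFP, 13.24 and 13.16 with AdmiR7a and 13.24 with AdmiR7b, and the gene rose by 0.36 ± 0.08 (limma adjusted p = 0.0416). Probe set 1418066_at read 10.79, then 10.32, 10.47 and 10.27, a difference of -0.44 (adjusted p over probe sets = 0.0774). Probe set 1431432_at read 5.12, then 5.40, 5.14 and 5.53, a difference of 0.23 (adjusted p = 0.428). The control was thus lowest at the first, highest at the second and close to 1 miR-7 array at the third. The mean of the 3 differed by 0.05 (adjusted p = 0.632), and over probe sets the first did not pass (adjusted p = 0.0568). Their span of 0.80 was exceeded by 10.5% of genes with several tested probe sets. In islets they read 11.08, 9.49 and 5.02 in KO against 11.42, 9.66 and 4.39 in WT, differences of -0.35, -0.16 and 0.63.

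**Figure D2:**
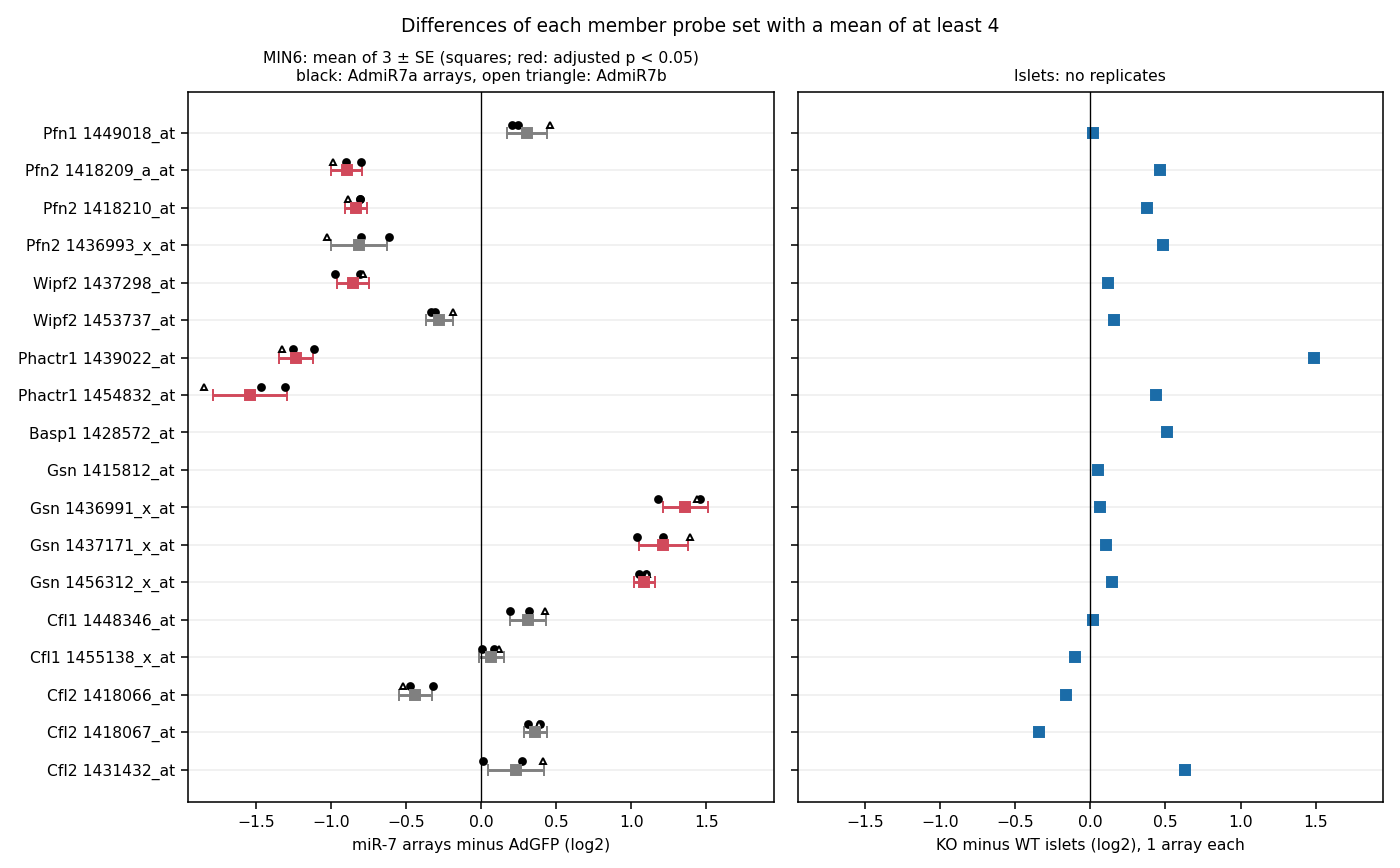
Log2 differences (horizontal axes) of each probe set with a mean of at least 4 (rows): left, the pooled miR-7 minus AdGFP difference with its SE (squares, red where the adjusted p was under 0.05) and each miR-7 array (small black points, open triangle for AdmiR7b); right, KO minus WT with no replicates. The Phactr1, Wipf2 and Pfn2 probe sets lie below 0 in MIN6 and above 0 in islets, and those of Cfl2 lie on both sides of 0.

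The miR-7a and miR-7b vectors were compared directly for the 7 tested genes, each at its brightest probe set in MIN6. The AdmiR7b minus AdmiR7a differences ran from -0.14 for Phactr1 to 0.23 for Pfn1. At other probe sets, for which this contrast was not tested, AdmiR7b lay below the mean of AdmiR7a by more: the difference was -0.46 at 1454832_at of Phactr1 and -0.32 at 1436993_x_at of Pfn2. At the brightest probe sets the 95% confidence intervals lay between -0.50 and 0.49, and the adjusted p from limma between 0.737 and 0.924. For Pfn2 the interval was -0.31 to 0.15, and for Gsn -0.22 to 0.28. Over all genes 0 of 10368 passed (0% called), with 608 at an unadjusted p under 0.05. The intervals give the range of differences these arrays leave possible and are not a limit of detection. With 1 AdmiR7b array and adjustment over all genes, differences outside them could also have been missed. In the fit of AdmiR7a alone against AdGFP no gene passed either (3812 at an unadjusted p under 0.05), and the lowest adjusted p of the 7 was 0.0667.

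In islets all 8 genes passed the filter. Of these, 6 (Pfn1, Pfn2, Wipf2, Phactr1, Basp1 and Gsn) were higher in KO at any size, as were 44.7% of all 10567 genes, and Cfl1 and Cfl2 were lower. None of the 8 was higher by 1 or more at its brightest probe set, a size that 1.36% of genes reached. By probe set, 15 of the 18 above the filter were higher in KO, where 48.1% of all probe sets were. These 15 include 4 of Gsn and 3 of Pfn2, and probe sets of 1 gene are not independent. The 8 genes were also chosen with earlier results of these data known, so no excess is read from these counts. The median difference of the 8 genes was 0.13, against -0.03 over all genes. Pfn2, Phactr1 and Basp1 were the highest, at 0.44 to 0.51. Each of these 3 lay below 0.75, the size that 5% of genes exceeded in either direction. All 3 genes that fell in MIN6 were higher in KO (Pfn2 and Phactr1 through a different brightest probe set), as were 68.2% of the 1146 genes that fell and were measured in both systems. Over all 9780 genes measured in both, 8% had fallen and were higher in KO. The MIN6 and islet comparisons share no array.

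The wider actin system was described through 13 lists that hold 124 genes, 117 of them named on the array. Without the 8 genes, 85 were tested in MIN6: 11 rose (12.9%) and 8 fell (9.41%), both close to the shares over all genes. Their median difference was 0.10, against 0.06 over all genes. Changes were thus spread over most lists in small numbers.

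Among the 13 tested genes around WIP and WASP, Wipf2 and Wasf2 fell and Grb2 rose. Wasf2 encodes WAVE2, which drives branched actin at the cell edge, and fell by 1.21 ± 0.13 (limma adjusted p = 0.0142). Grb2, an adaptor that recruits N-WASP, rose by 0.49 (adjusted p = 0.0403). Wipf1, the founding WIP gene, differed by 0.50 and did not pass (adjusted p = 0.228). Wipf3 was below the filter in MIN6 and read 4.32 in KO and 3.70 in WT islets. The Arp2/3 complex had 6 subunit genes tested, of which 0 passed in limma. Their median difference was 0.23, and 1 had an unadjusted p under 0.05.

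Among 14 regulators of cofilin 2 rose and 1 fell. Limk1 and Limk2, kinases that phosphorylate and inactivate cofilin, rose by 0.74 ± 0.11 (limma adjusted p = 0.0233) and 0.73 ± 0.10 (adjusted p = 0.0202). Tesk2, a related kinase, fell by 0.59 (adjusted p = 0.0307). Dstn, which encodes the cofilin relative destrin, differed by -0.13 and did not pass (adjusted p = 0.246).

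In the gelsolin family 2 of 4 tested genes rose and 1 fell. Beside Gsn, Svil, which encodes supervillin, rose by 0.57 (limma adjusted p = 0.0185), and Avil, which encodes advillin, fell by 0.72 ± 0.16 (adjusted p = 0.0459). Avil was 0.99 higher in KO than in WT islets. Vil1 and Capg passed the filter in islets only. Vil1 read 9.28 in KO and 9.62 in WT, and Capg 5.73 and 6.16. Scin passed in neither system. Of 11 genes of filament capping 2 rose and 1 fell. Capza1, a subunit of capping protein, fell by 1.42 ± 0.23 (adjusted p = 0.0260), while Eps8 rose by 0.64 (adjusted p = 0.0176) and Add1 by 0.49 (adjusted p = 0.0303).

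In the PHACTR and phosphatase 1 list of 7 genes, Phactr1 fell and Phactr3 rose by 0.73 (limma adjusted p = 0.0380). Phactr2 differed by 0.28 (adjusted p = 0.461) and Phactr4 by -0.75 (adjusted p = 0.0538), and neither passed. PHACTR proteins compete with MRTF coactivators of SRF for actin monomers. In the list of 8 tested MRTF and SRF genes 1 fell: Vcl, the target gene that encodes vinculin, by 1.01 (adjusted p = 0.0119). Srf itself differed by -0.28 and did not pass (adjusted p = 0.475). Among relatives of Basp1, Marcksl1 rose by 0.91 (adjusted p = 0.0198) and differed by -0.48 between KO and WT islets, while Gap43 (0.34, adjusted p = 0.127) and Marcks (-0.08, adjusted p = 0.562) did not pass.

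Formins, which extend unbranched filaments from monomers delivered by profilin, held the lowest difference of all the lists. Fmn1 fell by 1.89 ± 0.08 (limma adjusted p = 0.0101) and was 0.88 higher in KO islets. In its list of 13 tested genes Daam1 also fell by 0.34 (adjusted p = 0.0395), and Fmnl2 rose by 0.55 (adjusted p = 0.0253). Tpm4 fell by 1.06 (adjusted p = 0.0125), 1 of 3 tropomyosin genes tested. Of 5 actin and thymosin genes 2 rose: Tmsb10, which encodes the monomer-binding thymosin beta 10, by 0.76 (adjusted p = 0.0179) and Acta1 by 0.50 (adjusted p = 0.0469). The cytoplasmic actin gene Actb differed by 0.01 (adjusted p = 0.958).

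**Figure D3:**
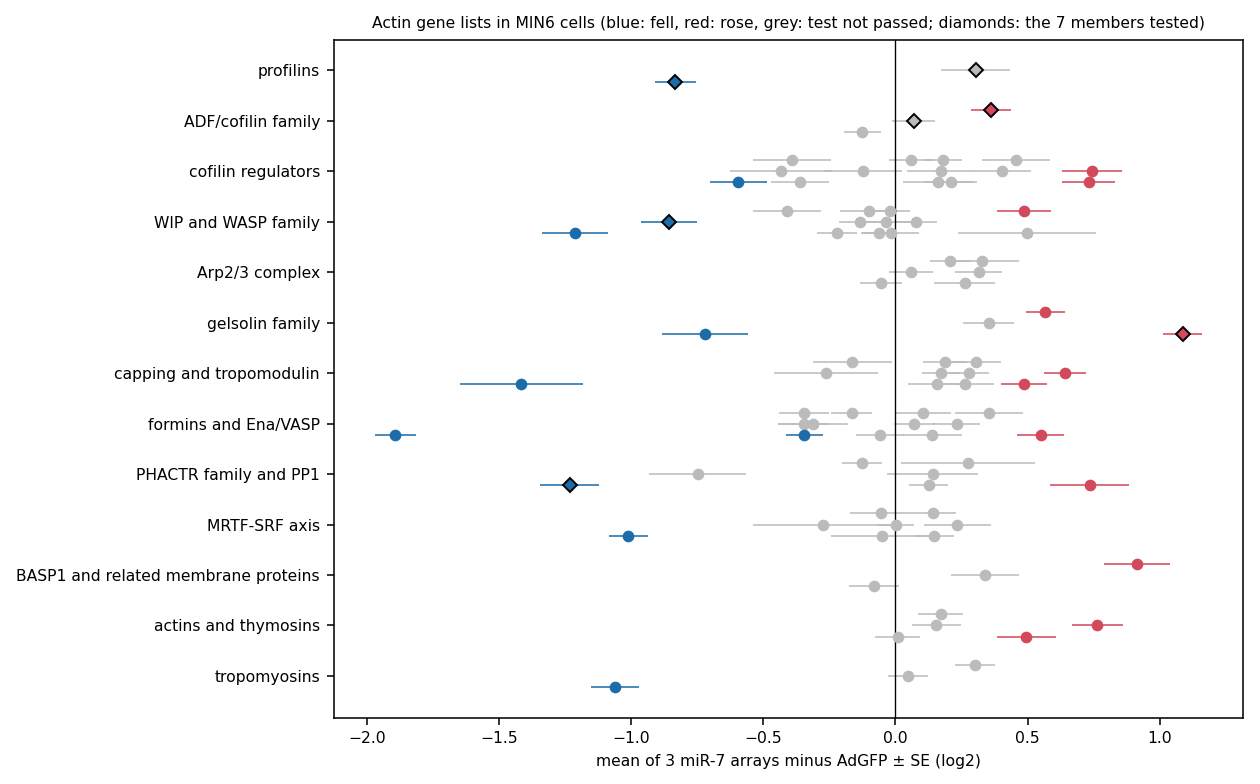
Pooled miR-7 minus AdGFP difference with its SE (horizontal axis, log2) of each tested gene in the 13 actin lists (rows), blue where the gene fell, red where it rose and grey where it did not pass; diamonds mark the 7 tested genes of the set. No list has more than 2 coloured genes in either direction, and Fmn1 lies farthest to the left.

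In islets, 40 of the listed genes outside the set stood higher in KO and 46 lower, and their median difference was -0.05. Those at a size of 1 or more were Wasf1 (1.10), Pdxp (-1.10) and Tpm2 (-1.39). Their split by MIN6 call was uneven. The 8 that fell in MIN6 were all measured in islets, and all 8 were higher in KO, by 0.0036 for Tesk2 to 0.99 for Avil, with a median of 0.13. Of the 11 that rose, 10 were measured, and all 10 were lower in KO, with a median of -0.21. Many of these differences were small. Tesk2, Daam1, Vcl and Wasf2 of the 8 lay under 0.17, the median absolute difference of all genes. So did Svil, Grb2, Limk2 and Fmnl2 of the 10 in absolute size, and the rest of both groups lay above it. Over all genes 68.2% of the 1146 that fell were higher in KO, and 68.2% of the 1392 that rose were lower. With quantile normalization repeated on the islet arrays 7 of those 8 stayed higher, Tesk2 being the exception, and all 10 stayed lower. Gsn, which rose in MIN6 and was 0.14 higher in KO, went the other way from these 10, and Cfl2 was lower in KO as they were. The lists were chosen with earlier results of these data known, so no excess is read from these counts. The difference between the listed genes and all genes was not tested.

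**Figure D4:**
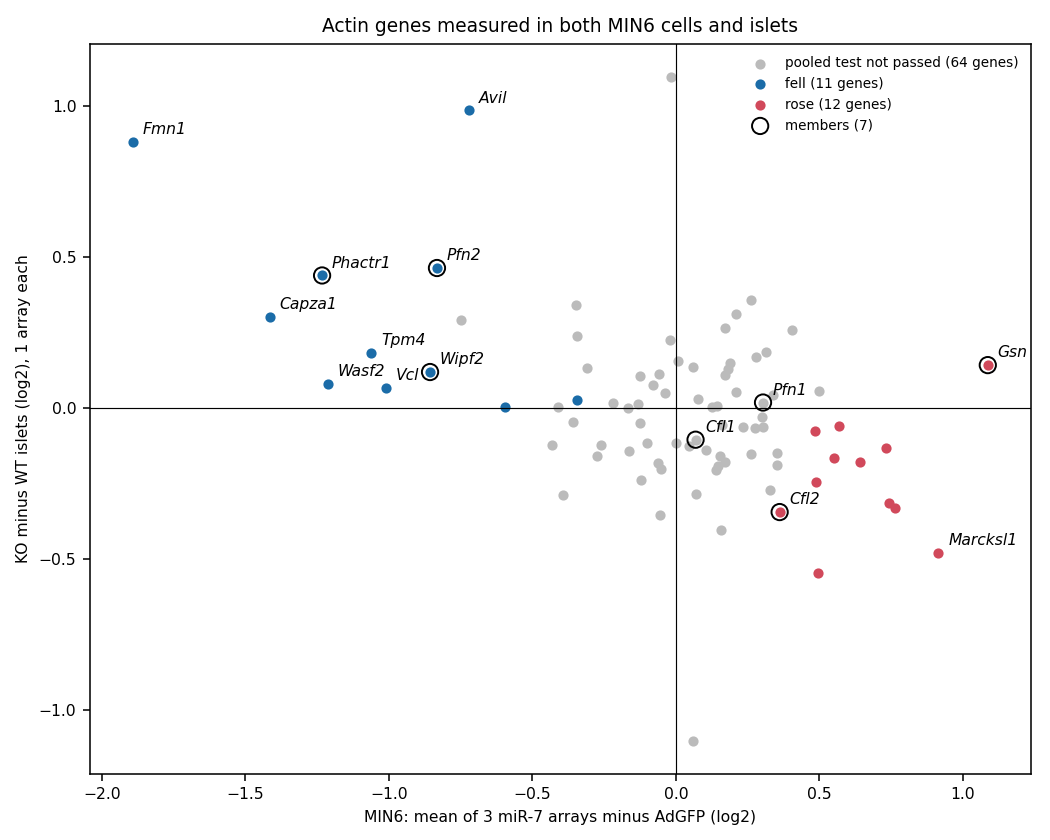
Pooled miR-7 minus AdGFP difference in MIN6 (horizontal axis, log2) against KO minus WT in islets (vertical axis, log2) for the genes of the actin lists tested in both systems, with the 7 tested genes of the set circled and coloured by their MIN6 call. Phactr1, Pfn2 and Wipf2 lie in the upper left, and Gsn lies at the right just above 0.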

How the data were processed

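The deposited table holds 1 log2 value per probe set for each of 6 Affymetrix arrays. The authors computed it with GCRMA in the affy package (versions not given), per the submitters' processing notes. GCRMA subtracts a sequence-based background and equalizes the distributions of arrays, and the sources do not say if further arrays were included. Between 28.2% and 29.7% of probe sets were at the lowest value, 2.17. Probe sets were named from the platform annotation (34958 with 1 symbol, 932 with several, 9211 with none; 34754 matched RefSeq). The members and gene lists were chosen with earlier results of these data known. A gene was represented by its brightest probe set on average, chosen separately in MIN6 and islets, and means below 4 were left out. limma 3.58.1 (R 4.3.3; lmFit, eBayes) compared the 3 miR-7 arrays with AdGFP, with 2 residual degrees of freedom, two-sided, with Benjamini-Hochberg adjustment over all genes. This fit takes the single AdGFP array to have the spread of the others. AdmiR7b was compared with AdmiR7a in a fit with a mean per vector. KO and WT had 1 array each and no test. The number of arrays limits the precision.

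Named genes were all 8 members, up to 2 genes per actin list and direction with the largest size past the test, the paralogs of the members, and for Pfn2, Phactr1, Wipf2 and Gsn the 3 genes nearest over 4 differences (the rule also held Basp1, which was not tested in MIN6); Wasf1, Pdxp, Tpm2, Srf, Actb, Pecam1, Cdh5, Plvap and Esam were named after their values were seen. A further list of actin-related genes is not reported here. Alternatives changed the filter, the choice of probe set, the scaling, the prior variance and the miR-7 arrays used.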

Additional observations from a re-analysis of the deposited data

How the results depend on the processing

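The count of 2 members that rose was 1 with a filter at 6, where Gsn was not tested and 1730 of 9210 genes rose. It was 1 without a filter, where 427 of 18193 genes rose. It was 1 with every probe set tested separately, where 1594 of 20177 probe sets rose. Without probe sets ending in _x_at, an alternative chosen after seeing the data, it was 1. There Gsn was not tested and 1451 of 10286 genes rose. It was 0 with the mean of the probe sets of a gene, where Gsn was below the filter and not tested and Cfl2 did not pass. In that setting 1376 of 9774 genes rose. The count of 3 members that fell was 1 without a filter, Pfn2, where Phactr1 had an adjusted p of 0.0634 and Wipf2 of 0.0866. Over all genes 554 of 18193 fell without a filter. Leaving out 1 miR-7 array in turn gave 0 members in either direction. The differences of the 5 called members then lay between -0.85 and -0.81 for Pfn2, -1.29 and -1.19 for Phactr1, and -0.89 and -0.80 for Wipf2. They lay between 1.08 and 1.10 for Gsn and between 0.35 and 0.39 for Cfl2. All 3 miR-7 arrays of these members lay on the same side of AdGFP. The mean of any 2 thus had to keep its direction, which adds no support. The count of 0 members at least 1 higher in KO was 1, Phactr1, with the mean of the probe sets and 1 with every probe set counted separately, added after seeing the data. With the mean of the probe sets Phactr1 differed by -0.80 and Wipf2 by -0.57 in MIN6. Repeated quantile normalization, centring on the median and a trended prior changed neither count of calls. With 1 value per gene no result turned its direction, with 2 exceptions in islets. Cfl1 (0.02) was higher in KO without probe sets ending in _x_at, and Cfl2 (0.04) with the mean of the probe sets. The count of 6 members higher in KO was 7 in each of these settings and 8 with every probe set counted separately. In the latter a gene counted if any of its probe sets was higher. Of the 18 probe sets 3 were lower, 1455138_x_at of Cfl1 (-0.11) and 1418067_at (-0.35) and 1418066_at (-0.16) of Cfl2. Among separate probe sets, Cfl2 also turned at 1418066_at in MIN6 (-0.44) and at 1431432_at in islets (0.63). No paired analysis was possible because only AdmiR7a carries replicate numbers. Signal near the floor limits Basp1 and Gsn in MIN6, and 1 array per genotype limits every islet value.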

Other observations

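The genes whose 4 differences (each miR-7 array minus AdGFP, and KO minus WT) lay nearest to those of a member were searched among 9779 genes tested in both systems. The measure was the root mean square distance on the log2 scale, and the 3 MIN6 differences share the AdGFP array. Nearest to Pfn2 were Nipal3 (0.04), Gpam (0.04), which encodes a mitochondrial enzyme of glycerolipid synthesis, and Srebf1 (0.05), which encodes a transcription factor of lipid synthesis. Srebf1 differed from AdGFP by -0.76, -0.87 and -0.83 on the miR-7 arrays and was 0.51 higher in KO. Nearest to Phactr1 were Ubqln4 (0.05), Mfsd10 (0.06) and Sgpl1 (0.07). The MIN6 and islet differences of Phactr1, and those of Pfn2, came from different probe sets. For Phactr1, KO minus WT was 0.44 at the islet probe set used and 1.49 at the MIN6 probe set. Nearest to Wipf2 were Plod3 (0.06), Tnk1 (0.06) and Dnase1l1 (0.07). Nearest to Gsn were Crocc (0.07), Atp11a (0.07) and Sft2d2 (0.07). Basp1 was not tested in MIN6 and was not searched. All these distances were below 0.10, the median absolute difference between the duplicate AdmiR7a arrays, so nothing is read from the order of the neighbours.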
